A study of Mus musculus with 9 samples.

Results

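The response of mouse bone marrow-derived macrophages (Mϕs) to IL-6 was described across all genes, from 3 IL-6-treated and 3 control samples of a series of 9. A gene entered when its mean over these 6 samples was at least 0.5 FPKM (fragments scaled by exon length and by the total of the library), which 12797 of the 53379 genes in the table did. Bone marrow of wild-type C57BL/6 mice, 3 animals in all, was cultured with 10 ng/ml CSF-1 for 3 days. CSF-1 alone (control) or CSF-1 with 100 ng/ml IL-6 was then given for 4 days. The remaining group of the series, IL-4, was given CSF-1 with 10 ng/ml IL-4 for 4 days. The figure legends of the study give another dose and time, and the values here follow the sample labels. No sex or age is given, and no sorting step is named in the culture protocol, so each library holds whatever cells were lysed with the Mϕs. In such bulk libraries, fewer cells of a type and less RNA per cell cannot be told apart.

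IL-6 binds its receptor together with the shared signaling subunit gp130, and Janus kinases bound to gp130 then phosphorylate STAT3, which enters the nucleus and switches on genes that carry its binding motif. One of these encodes SOCS3, which binds gp130 and shuts the signal off. In the liver IL-6 is known as the inducer of acute-phase proteins, and in myeloid cells it acts beside CSF-1, the growth factor on which Mϕs depend. Mϕ marker genes were expressed in all 6 libraries, beside genes of other cell types described further on. Adgre1, which encodes F4/80, was between 383 and 523 FPKM in all 6 libraries, and Csf1r, the CSF-1 receptor, was at 751, 574 and 569.6 FPKM in control and 658, 573 and 614 FPKM in IL-6-treated Mϕs. Neither passed the test described below (adjusted p = 0.504 and 0.888). Other Mϕ markers differed more. Cd68 was at 1311, 1642 and 1588 FPKM in control and 934, 968 and 953 FPKM with IL-6. Itgam was higher with IL-6, at 35.2, 33.7 and 36.8 FPKM and 62.4, 62.3 and 75.1 FPKM, and so was Cd14.

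The 6 libraries held 29988160 to 35087119 fragments. One feature of the series touches every result below. Fragments of intestinal genes (Defa, Reg3 and Itln1), which Mϕs are not known to express, numbered 974, 1132 and 1051 in control #1 to #3 and 839 in the first IL-4-treated library, and 0 or 1 in the other 5 libraries of the series, all 3 IL-6 libraries included. The libraries therefore fall into 2 sets, and control and IL-6 lie wholly in different sets, so that IL-6 and the set cannot be told apart from these 6 libraries alone. A second fit of all 9 libraries is here called set-adjusted because it holds the set as a covariate. Its set term rests on how the first IL-4 library departs from the rest of the IL-4 group. Those libraries also differ in mouse number, for which this fit has no term. Set and mouse 1 therefore cannot be told apart in it, whether a gene passes there or is lost. The set-adjusted fit is far less precise, with a median standard error of 0.42 against 0.15 on the log2 scale. It also moves the median log2 fold change of all genes from 0.00 to 0.22. Part of this rests on the third IL-4 library (IL-4 #3). With it left out, the median standard error was 0.29, the median log2 fold change was 0.03, and 370 genes passed in place of 189. Beside each functional list the genes that also passed in the set-adjusted fit of all 9 libraries, or their number, are given where any gene was called. A gene lost there was not shown to be unaffected by IL-6.

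The test was limma's, run on log2(FPKM + 0.1), and a gene is said to have risen or fallen when its Benjamini-Hochberg adjusted p was under 0.05 and its log2 fold change was at least 1 in size. By this rule 998 of the 12797 genes differed between IL-6 and control, 7.8% of those tested. Of these, 666 rose (5.2%) and 332 fell (2.59%), and 216 rises and 93 falls were at least 4-fold. In all 998 the 3 IL-6 libraries lay on one side of the 3 control libraries, a trait that the thresholds nearly force and that 43.2% of all tested genes (5528) share. Between libraries of the same group the root mean square log2 difference over all tested genes was 0.454 to 0.693, whereas pairs of 1 control and 1 IL-6 library differed by 0.775 to 1. In the set-adjusted fit 189 genes passed, 150 higher (1.17% of those tested) and 39 lower (0.305%), of which 169 were among the 998. An exact permutation test of a single gene in 3 against 3 libraries gives no p under 0.1, so all adjusted p-values are from limma. The same 3 mouse numbers mark control and IL-6 libraries, but the test does not use this pairing and treats the 6 libraries as independent. Its p-values measure the spread between the libraries of these 3 mice within each group. With mouse number held as a block 1125 genes passed, and the median standard error was 0.117 against 0.146.

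**Figure D1:**
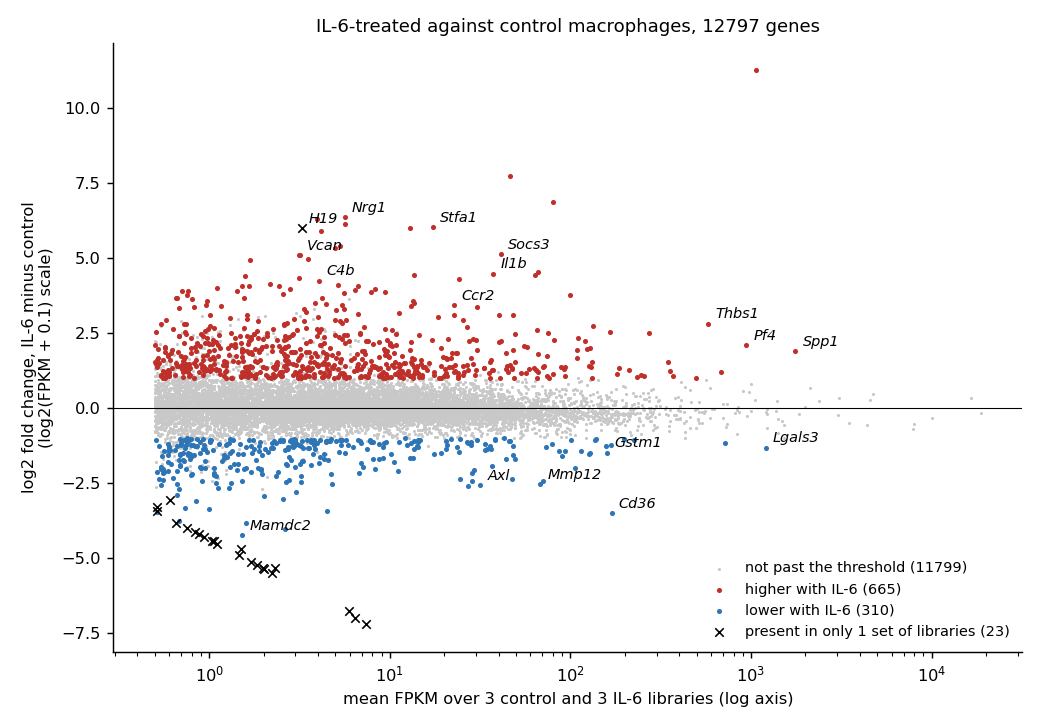
Each point is 1 of 12797 genes, with its mean FPKM over the 6 libraries on a log axis and its log2 fold change (IL-6 minus control) on the y axis. The 665 red points rose and the 310 blue points fell, while the 23 black crosses, all but H19 among the falls, mark genes present in only 1 set of libraries.

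Of the genes of the IL-6 receptor and JAK-STAT pathway, 14 of 48 tested rose and 0 fell, with a median log2 fold change of 0.30 against 0.00 over all genes. Socs3, the feedback inhibitor, checks the treatment. It stood at 2.91, 2.28 and 1.61 FPKM in control #1 to #3 and at 74.7, 80.9 and 85.5 FPKM in IL-6 #1 to #3, a 35.4-fold difference in mean FPKM (log2 fold change 5.12, standard error 0.201, adjusted p = 3.88e-05). No control library came near any IL-6 library. The receptor subunits themselves did not pass. Il6st, which encodes gp130, was at 19.1, 9.49 and 13.8 FPKM in control and 18.3, 15.3 and 16.1 FPKM with IL-6 (adjusted p = 0.421), and Il6ra was at 25.5, 16.8 and 18.4 FPKM and 18.4, 17.1 and 16.5 FPKM (adjusted p = 0.388), with overlapping groups in both. Among the rises were receptor chains for other cytokines. Il4ra, the chain shared by the IL-4 and IL-13 receptors, went from 30.6, 29.7 and 27.6 FPKM to 99.03, 101 and 109 FPKM (log2 fold change 1.81, standard error 0.0786, adjusted p = 5.22e-05). Il2rg, the common γ-chain, went from 24.4, 25.8 and 24.02 FPKM to 69.7, 66.01 and 67.5 FPKM (log2 fold change 1.45, standard error 0.0684, adjusted p = 6.48e-05), and Il21r from 21.6, 21.5 and 21.4 FPKM to 51.2, 51.3 and 55.2 FPKM (log2 fold change 1.28, standard error 0.0675, adjusted p = 9.32e-05). For each of these genes the replicates lay close together and far from the other group. Csf2rb and Csf2rb2, near-identical genes for β-chains of the IL-3 receptor, rose 2.63-fold and 2.11-fold, although reads that fit both copies make the split between them uncertain. Stat4, the kinase gene Jak3, Il13ra1, Lifr, Junb and the STAT-induced kinase gene Pim1 rose as well, by log2 fold changes of 1.01 (Il13ra1) to 1.57 (Stat4). Stat3 and Bcl3 complete the 14. In the set-adjusted fit 4 remained past the threshold, namely Socs3, Il4ra, Il2rg and Il21r. Cish and Socs1, feedback inhibitors better known from IL-4 and interferon signaling, did not pass (adjusted p = 0.5196 and 0.503).

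STAT dimers bind the letters TTCNNNGAA, which read the same on both strands. RefSeq promoter windows (GRCm38.p6, from 250 bases before to 50 after the transcript start) were matched by symbol for 9003 of the tested genes, and 8.21% of these held the motif. Among genes that rose it was found in 56 of 446 with a window (12.6%), among genes that fell in 14 of 173 (8.09%), and in 8.3% of all windows of this length. The 12 largest rises, H19 included, and the JAK-STAT genes that rose were then searched. Of the 14 JAK-STAT genes 13 had a window and 2 of these held the motif (15.4%), a share that rests on few genes. The 12 rises added no further match. Both are shown, with the motif in capitals, because Socs3 is the treatment check and Csf2rb2 is one of the receptor chains above.
Socs3, chr11:117969452-117969580, minus strand: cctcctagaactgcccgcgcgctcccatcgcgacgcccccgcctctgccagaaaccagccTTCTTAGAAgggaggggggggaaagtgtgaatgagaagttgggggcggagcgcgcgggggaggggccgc
Csf2rb2, chr15:78305672-78305796, minus strand: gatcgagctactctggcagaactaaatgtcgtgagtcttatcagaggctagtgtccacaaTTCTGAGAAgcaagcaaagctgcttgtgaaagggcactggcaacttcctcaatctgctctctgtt
The Socs3 match lies at position −154 from the transcript start and the Csf2rb2 match at −15. Such a match describes the window and is not evidence of binding.

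Single genes were ranked without predicted genes and pseudogenes (Gm numbers and names ending in Rik or -ps) and without intestinal and muscle markers. Hif1a, Ets2, Nfkb2, Stat3 and Bcl3 were left out too. In 10 of the 12 largest rises so ranked, Saa3, Ccl8, Cd38 and H19 left out, every control library was under 1 FPKM, and Socs3 and Ifitm1 were the other 2. Nrg1, which encodes the growth factor neuregulin-1, was at 0.0415, 0.02899 and 0.0413 FPKM in control (9 to 15 fragments) and 11.8, 9.46 and 12.4 FPKM with IL-6 (3199 to 4254 fragments). This was the largest rise of the ranked genes, which do not include Saa3, Ccl8 and Cd38 (log2 fold change 6.36, standard error 0.165, adjusted p = 9.32e-06). A group of 4 stefin A genes, cytosolic inhibitors of cysteine proteases that sit in one cluster, rose together. BC100530 was at 0, 0.0844 and 0.108 FPKM against 10.5, 15.3 and 7.995 FPKM, and Stfa1 was at 0.137, 0.399 and 0.955 FPKM against 36.8, 44.2 and 21.1 FPKM. Stfa3 rose from 0, 0.162 and 0 FPKM to 8.98, 9.37 and 6.56 FPKM and Stfa2 from 0.0677, 0.0788 and 0.0674 FPKM to 4.13, 9.77 and 4.695 FPKM. The copies are near-identical in sequence, so the share of each is uncertain, but no control library reached 1 FPKM in any of them and no IL-6 library was under 4.13 FPKM. Vcan, the chondroitin sulfate proteoglycan versican made by monocytes, went from 0.133, 0.0438 and 0.0828 FPKM to 7.59, 5.36 and 5.77 FPKM (log2 fold change 5.10, standard error 0.242, adjusted p = 6.83e-05). Syt13, a synaptotagmin, rose from 0.0457, 0.231 and 0.182 FPKM to 6.23, 14.1 and 11.01 FPKM, and Prrt4, a transmembrane protein gene with 0 or 1 fragment in each control library, reached 1.798, 4.28 and 3.98 FPKM. Spint1, a membrane-bound inhibitor of serine proteases, was at 0.114, 0.133 and 0.124 FPKM and 5.88, 7.11 and 7.93 FPKM. Ly6i, a surface protein gene whose neighbors in the Ly6 cluster may share reads with it, went from 0.248, 0.0865 and 0.123 FPKM to 9.92, 10.2 and 9.29 FPKM, and Ifitm1, an interferon-inducible membrane protein, from 4.19, 6.31 and 5.63 FPKM to 119, 125 and 135 FPKM (log2 fold change 4.55, standard error 0.153, adjusted p = 2.26e-05). Of these genes and Socs3, only Stfa1 was lost in the set-adjusted fit (adjusted p = 0.0632). One further gene met the same criterion. The long noncoding RNA H19 was at 0 in the 3 control libraries and at 4.73, 9.17 and 5.64 FPKM with IL-6, but it was also at 0.0238, 7.06 and 6.17 FPKM in IL-4 #1 to #3, so that its level follows the set of libraries, and in the set-adjusted fit its log2 fold change was 0.23 (adjusted p = 0.745).

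Among the falls the intestinal genes had to be set aside first. Of the 332 falls, 22 were of genes whose every library of the set with intestinal fragments was at least 10 times every library of the other set, a definition written after the values were seen. Besides Defa, Reg3 and Itln1 genes they include Pla2g2a, Lgals2, Mptx2, Spink4, Lypd8 and Dmbt1, which headed the falls, and without them 310 falls remained. Of the other falls of ranked genes the largest was that of Mamdc2, from 3.13, 2.42 and 3.398 FPKM to 0.0945, 0.119 and 0 FPKM (log2 fold change −4.23, standard error 0.352, adjusted p = 5.43e-04). Cdkn1c, the cyclin-dependent kinase inhibitor p57, went from 3.64, 6.25 and 5.33 FPKM to 0.225, 0.2703 and 0.144 FPKM (log2 fold change −4.03, standard error 0.2599, adjusted p = 2.07e-04). Cd36, the scavenger receptor for oxidized lipoproteins and fatty acids, was at 267, 278 and 389 FPKM in control and 24.2, 27.95 and 29.3 FPKM in IL-6-treated Mϕs, 11.4-fold lower (log2 fold change −3.50, standard error 0.162, adjusted p = 6.48e-05). Axl, the receptor for Gas6 on apoptotic cells, fell 5.42-fold from 50.7, 54.1 and 55.9 FPKM to 4.57, 13.4 and 11.7 FPKM, and Mmp12, the Mϕ elastase, fell 5.94-fold from 90.6, 106 and 152 FPKM to 20.3, 17.7 and 20.7 FPKM (log2 fold change −2.53, standard error 0.191, adjusted p = 3.83e-04). In all of these no IL-6 library reached the lowest control library. Tox2, a nuclear factor, was at 1.93, 1.69 and 2.04 FPKM and 0.059002, 0.08104 and 0.153 FPKM. Klk1b11 and Klk1b1, kallikrein-family proteases of one cluster of similar genes, went from 8.53, 7.999 and 8.16 FPKM to 0.864, 0.781 and 0.453 FPKM and from 1.55, 1.77 and 1.38 FPKM to 0.198, 0.141 and 0 FPKM. Ear6, Slco2b1 and the gene segment Iglj1 were also among the 12 largest of these falls, and the calls of 2 of them depended on single libraries. Iglj1 rests on 3 or 4 fragments in each control library and lost its call without 4 of the 6 libraries in turn, for example without control #2 (adjusted p = 0.0689), and Slco2b1 lost its call without control #3 (adjusted p = 0.0608). Cdkn1c, Cd36, Klk1b11, Tox2 and Mmp12 still passed in the set-adjusted fit, while Mamdc2 had an adjusted p of 0.0553 and Axl of 0.292.

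**Figure D2:**
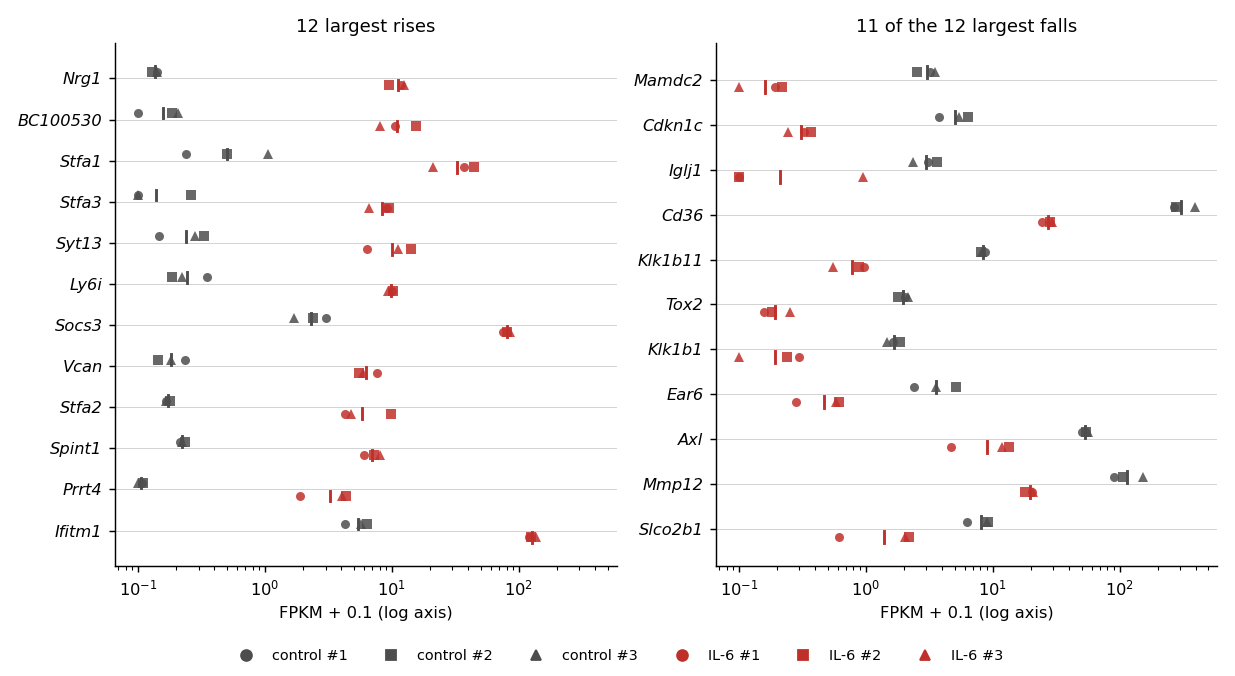
FPKM + 0.1 on a log axis for the 12 largest rises (left) and 11 of the 12 largest falls (right), genes of only 1 set of libraries left out, with 1 marker for each library and a bar at the geometric mean of FPKM + 0.1. Control (gray) and IL-6 (red) libraries do not overlap in any of these genes.

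Strongly expressed genes changed too, and most of them less than the genes above. Osteopontin (Spp1), a secreted phosphoprotein, had the highest level of the ranked genes that rose, with 623, 776 and 839.8 FPKM in control and 3190.3, 2667 and 2473 FPKM with IL-6 (log2 fold change 1.90, standard error 0.153, adjusted p = 4.72e-04). Thbs1, the matrix protein thrombospondin-1, went from 206, 111 and 128 FPKM to 1032, 939 and 1048 FPKM (log2 fold change 2.81, standard error 0.225, adjusted p = 4.56e-04). Clec4n, which encodes the fungal receptor dectin-2, rose 2.91-fold, Ifitm2 2.09-fold and the complement gene C1qa 2.28-fold. The rises of Chil3 and Cd5l, secreted proteins of Mϕs, were closer to the threshold, at log2 fold changes of 1.01 and 1.24. Chil3 lost its call without control #1 (0.81), IL-6 #2 (0.99) or IL-6 #3 (0.97), and Cd5l without control #1 (0.94) or, by adjusted p, without IL-6 #1 (0.0598) or IL-6 #2 (0.0639). Of the 8 most abundant genes that fell, Cd36 is given above. Lgals3 (galectin-3) went from 1293, 1964 and 1917 FPKM to 625, 729 and 696 FPKM, and Lgals1 (galectin-1) from 700.4, 1181 and 1098 FPKM to 405, 460.2 and 439 FPKM. Trem2, the lipid-sensing receptor, fell 2.44-fold, Clec7a (dectin-1, the receptor for β-glucan) 2.34-fold, Gstm1, a glutathione S-transferase, 2.802-fold, and Capg, an actin-capping protein, 2.06-fold. Capg lost its call without control #2 (log2 fold change −0.91), control #3 (−0.94) or IL-6 #1 (−0.996). Mir6236 lost its call without any 1 of the libraries other than IL-6 #2, for example without control #3 (adjusted p = 0.0911), and with mouse number as a block. Dectin-1 and dectin-2 thus moved in opposite directions within one family of C-type lectins. Besides Cd36, Clec4n and Gstm1 passed in the set-adjusted fit, and the others named here did not.

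The share of members past the threshold is plotted for 36 functional lists. Of these, monocyte-associated genes, chemokines, acute-phase and antimicrobial proteins, and extracellular matrix genes had the largest shares of rises, between 18 of 29 and 15 of 31. At the other end, oxidative phosphorylation (76 genes), DNA and histone modifiers (26), DNA replication and mitosis (101) and lysosomal genes (80) had 1 rise or none. The lists were chosen with earlier results of these data known, some genes are in several lists, and no list as a whole was tested.

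**Figure D3:**
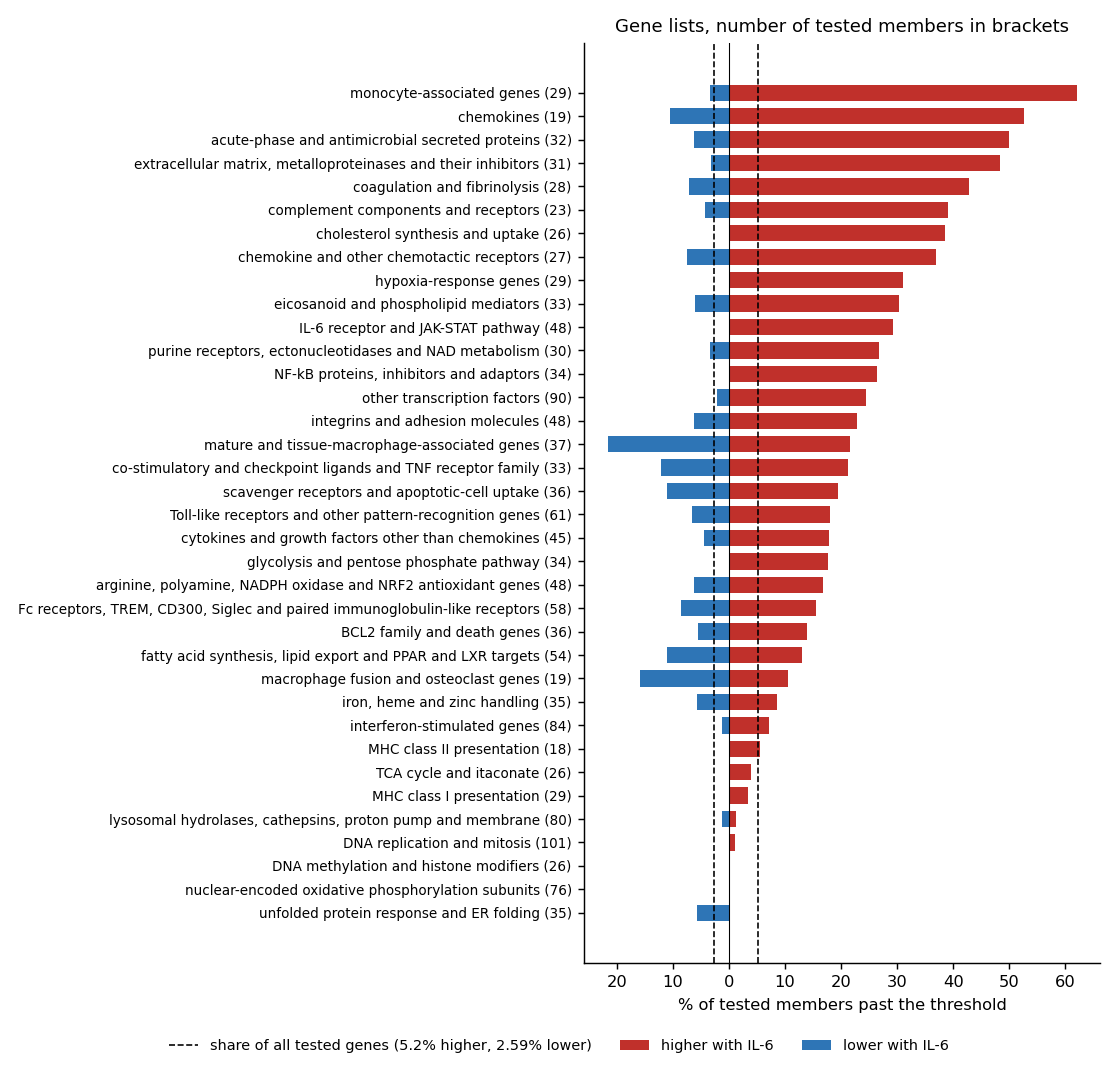
Share of the tested members of 36 gene lists that rose (red, to the right) or fell (blue, to the left) with IL-6, with the number of tested members in brackets. The dashed lines are the shares over all tested genes, 5.2% higher and 2.59% lower, and the monocyte list has the largest share of rises, with 18 of 29 members.

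Acute-phase and antimicrobial secreted proteins rose in 16 of 32 tested genes and fell in 2 (median log2 fold change 0.91). Saa3 and the stefins are among the rises. Hp, the hemoglobin-binding protein haptoglobin, stood at 24.7, 43.4 and 40.1 FPKM in control and 224, 228 and 244 FPKM with IL-6 (log2 fold change 2.72, standard error 0.209, adjusted p = 4.09e-04). Lrg1, a leucine-rich glycoprotein of the acute phase, went from 6.81, 11.7 and 10.6 FPKM to 27.7, 34.998 and 40.4 FPKM, and Slpi, an inhibitor of leukocyte proteases, from 14.3, 25.7 and 19.3 FPKM to 67.7, 69.2 and 68.7 FPKM. Lbp, which hands endotoxin to CD14, rose 2.29-fold and the protease inhibitor Serpina3g 3.66-fold. Lcn2 (lipocalin-2), an iron-scavenging protein often used as a marker of this response, was higher in every IL-6 library than in any control library, at 98.96, 174 and 155 FPKM and 189, 218 and 243 FPKM, but did not pass (log2 fold change 0.64, adjusted p = 0.0852). The 2 falls were Ear6 and Lyz1, the latter a lysozyme of Paneth cells that is also on the intestinal list. Its direction turned in the set-adjusted fit. Of the 16 rises 5 passed in the set-adjusted fit, and 3 of these are stefins. Without control #1, 5 of these genes fell in place of 2.

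Complement genes rose in 9 of 23 tested members and fell in 1, Itgax, a subunit of complement receptor 4 (median 0.26). The rises span the classical and the alternative pathway. C4b was at 0.367, 0.223 and 0.365 FPKM and 6.75, 7.66 and 8.91 FPKM, 24.4-fold higher (log2 fold change 4.25, standard error 0.198, adjusted p = 6.51e-05), and Cfb, factor B of the alternative pathway, at 0.304, 0.106 and 0.161 FPKM and 4.22, 3.84 and 5.98 FPKM, 24.6-fold higher (log2 fold change 4.07, standard error 0.3001, adjusted p = 3.51e-04). C3, on which both pathways converge, rose from 39.3, 34.7 and 36.7 FPKM to 189, 181 and 183 FPKM (log2 fold change 2.32, standard error 0.0761, adjusted p = 2.00e-05). The regulators Clu (clusterin) and Cd55 rose too, by log2 fold changes of 2.93 and 1.49, as did the protease genes C1ra and C1rl. C3, C4b, Cfb and C1rl passed in the set-adjusted fit.

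Of 19 tested chemokine genes 10 rose and 2 fell (median 1.02). The rises hold ligands of the neutrophil receptor CXCR2 and ligands of the monocyte receptor CCR2. Among the 10 are Ppbp and Pf4, which are also on a list of megakaryocyte and platelet genes described further on. Cxcl3 went from 0.0409, 0.0572 and 0.0407 FPKM (5 or 6 fragments) to 1.83, 3.54 and 3.96 FPKM, and Cxcl2 from 2.13, 2.08 and 1.78 FPKM to 28.001, 21.6 and 25.002 FPKM (log2 fold change 3.57, standard error 0.126, adjusted p = 2.65e-05). Ccl5 (RANTES) rose from 5.94, 6.63 and 4.99 FPKM to 43.5, 39.8 and 52.4 FPKM (log2 fold change 2.93, standard error 0.144, adjusted p = 7.69e-05) and Ccl12 from 0.533, 1.68 and 1.49 FPKM to 15.5, 16.9 and 20.2 FPKM, while Ccl2 (MCP-1) was at 6.696, 9.44 and 12.8 FPKM and 14.9, 13.5 and 13.05 FPKM and did not pass (adjusted p = 0.1202). Ccl12 resembles Ccl8 in sequence and could share reads with it. Cxcl14 fell 5.99-fold, from 4.44, 4.45 and 4.88 FPKM to 0.565, 0.754 and 0.9801 FPKM (log2 fold change −2.46, standard error 0.192, adjusted p = 4.21e-04), and the eosinophil-attracting Ccl24 2.89-fold. In the set-adjusted fit 5 of the rises passed, Ccl8, Cxcl3, Cxcl2, Ccl5 and Ccl12, and so did the fall of Cxcl14.

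Receptors for chemoattractants had 10 rises and 2 falls among 27 (median 0.65). Ccr2, which brings monocytes out of the marrow, was at 4.501, 3.18 and 3.75 FPKM in control and 42.4, 38.5 and 44.5 FPKM with IL-6, 10.97-fold higher (log2 fold change 3.43, standard error 0.137, adjusted p = 3.90e-05). The formyl peptide receptors Fpr1 and Fpr2, which sense bacterial and mitochondrial peptides, rose 3.83-fold and 3.799-fold, and Gpr84, a receptor for medium-chain fatty acids, 6.31-fold. Of the falls, Cxcr3 lost its call without control #1 (log2 fold change −0.996) and Gpr183, an oxysterol receptor, without control #3 (−0.97) or IL-6 #2 (−0.88). Ccr2, Fpr2 and Gpr84 were among those that passed in the set-adjusted fit. Among orphan and adhesion G protein-coupled receptors outside this list, Gpr55 rose from 0.223, 0.143 and 0.291 FPKM to 1.97, 1.704 and 2.08 FPKM, Gpr171 from 1.51, 1.604 and 1.37 FPKM to 5.01, 7.56 and 9.01 FPKM, and Gpr34, a lysophosphatidylserine receptor, fell from 8.53, 5.33 and 5.51 FPKM to 1.78, 1.58 and 1.74 FPKM. These 3 were picked from 12 rises and 7 falls in 39 after the values were seen.

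Cytokine and growth factor genes other than chemokines had 8 rises and 2 falls in 45 tested members, and their median was 0.07. Il1b, the precursor of IL-1β, rose 22.3-fold, from 3.76, 3.74 and 2.14 FPKM to 65.6, 69.5 and 79.6 FPKM (log2 fold change 4.47, standard error 0.223, adjusted p = 7.93e-05). Tnf rose 2.63-fold, from 8.95, 8.52 and 8.52 FPKM to 25.1, 21.99 and 21.4 FPKM (log2 fold change 1.38, standard error 0.0874, adjusted p = 1.92e-04), and the TNF-family ligands Tnfsf14 (LIGHT), Tnfsf9 (4-1BB ligand) and Tnfsf15 rose by log2 fold changes of 3.16, 2.26 and 2.13. Neither Il10 nor Il1rn, the genes of IL-10 and of the IL-1 receptor antagonist, passed. Il10 was at 0.9403, 1.35 and 0.936 FPKM in control and 1.66, 1.33 and 1.99 FPKM with IL-6 (adjusted p = 0.0983), and Il1rn at 9.27, 9.47 and 13.4 FPKM and 12.5, 13.2 and 15.6 FPKM (adjusted p = 0.1498). Gdf15, a stress-induced hormone of the TGF-β family, fell 2.404-fold and Igf1 2.01-fold, the latter no longer past the threshold without control #1 (log2 fold change −0.91), IL-6 #2 (−0.94) or IL-6 #3 (−0.96). Without control #1, 4 members fell in place of 2, and the sign of the small median turned with quantile normalization. Nrg1, Il1b and Tnfsf14 passed in the set-adjusted fit.

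Sensors of microbes rose in 11 of 61 tested genes and fell in 4 (median 0.24). Clec4e, which encodes mincle, the receptor for mycobacterial glycolipids, went from 6.79, 5.16 and 4.65 FPKM to 153, 111 and 99.4 FPKM (log2 fold change 4.42, standard error 0.2004, adjusted p = 6.13e-05), and Mefv, the inflammasome sensor pyrin, from 9.66, 7.795 and 7.696 FPKM to 78.1, 68.1 and 70.2 FPKM (log2 fold change 3.10, standard error 0.112, adjusted p = 2.95e-05). Tlr2 and Cd14, receptors for bacterial lipoproteins and endotoxin, rose 2.197-fold and 2.404-fold. All 4 falls were C-type lectins. Clec10a and Mgl2, which bind galactose-type sugars, fell 4.51-fold and 2.85-fold, Clec4b1 4.47-fold, and Clec7a is given above. The rises of Clec4e, Clec4n, Mefv and Tlr2 passed in the set-adjusted fit, and none of the falls did. Among Fc receptors, TREM, CD300, Siglec and paired receptors 9 of 58 rose and 5 fell (median −0.10). That median turned to 0.31 in the set-adjusted fit, and to 0.01 when IL-4 #3 was left out of it. Only 3 fell without control #3 or without IL-6 #1. Sirpb1c was at 1.27, 1.15 and 1.42 FPKM and 9.997, 9.46 and 9.39 FPKM, though it shares sequence with Sirpb1a and Sirpb1b, which rose as well. The kinase gene Fgr rose from 9.196, 9.66 and 10.04 FPKM to 47.01, 47.9 and 48.6 FPKM (log2 fold change 2.30, standard error 0.0696, adjusted p = 1.53e-05), and Sirpb1c, Fgr and Slamf6 were the 3 that passed in the set-adjusted fit. The activating receptors Fcgr1 (adjusted p = 0.231) and Fcgr4 (adjusted p = 0.754) did not pass. Fcgrt, the recycling receptor for IgG, fell 2.66-fold. Siglec1, which fell 2.29-fold, lost its call without control #1 (log2 fold change −0.91) or, by adjusted p (0.0638 to 0.0713), without control #3, IL-6 #1 or IL-6 #3, and it turned positive in the set-adjusted fit (0.70, adjusted p = 0.712).

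Genes associated with monocytes rose in 18 of 29, the largest share among the 36 functional lists, with 1 fall, Lgals3 (median 1.10). Besides Ccr2, Vcan and Clec4e these include Ly6c2, the surface marker of classical mouse monocytes, which went from 10.5, 15.8 and 14.5 FPKM to 39.7, 44.001 and 44.9 FPKM (log2 fold change 1.67, standard error 0.158, adjusted p = 8.78e-04). Plac8 rose from 12.9, 23.6 and 20.6 FPKM to 37.4, 55.1 and 50.04 FPKM, Ms4a4c from 4.79, 3.79 and 3.68 FPKM to 11.8, 14.1 and 14.3 FPKM, and Fcnb (ficolin-B) from 3.44, 5.33 and 4.62 FPKM to 11.8, 13.4 and 10.6 FPKM. Cebpb, a transcription factor of the monocyte lineage, rose from 31.6, 46.5 and 37.9 FPKM to 78.7, 114 and 119 FPKM (log2 fold change 1.42, standard error 0.202, adjusted p = 0.00426). Of the rises 7 passed in the set-adjusted fit. The list of mature and tissue Mϕ genes split evenly, with 8 rises and 8 falls in 37 and a median of 0.00. Marco, a scavenger receptor of marginal-zone and alveolar Mϕs, rose from 34.5, 43.2 and 25.3 FPKM to 108, 95.5 and 138 FPKM, while Axl, Clec10a, Trem2 and the iron exporter Slc40a1 fell. Maf, a transcription factor of mature Mϕs, had adjusted p = 0.658. None of these 37 genes passed in the set-adjusted fit. A list of granulocyte genes was followed in the same libraries, because immature myeloid cells share several monocyte genes. Its summed FPKM was 5021 to 8907 in control and 8195 to 11409 in IL-6 libraries. Of its 13 genes 1 rose, Mmp8, from 75.2, 64.7 and 77.3 FPKM to 177, 191 and 197 FPKM (log2 fold change 1.38, standard error 0.0959, adjusted p = 2.74e-04), and none fell. In 3 more, Prtn3, Ltf and S100a8, every IL-6 library was above every control library, and the groups overlapped in the other 9, Elane, Mpo and Ly6g included. Groups without overlap in 4 of 13 genes compare with 43.2% of all tested genes. Prtn3, a primary-granule protease, was at 11.6, 28.1 and 21.7 FPKM and 29.7, 48.1 and 49.4 FPKM (adjusted p = 0.0695), and S100a8 was at 1125, 1978 and 1843 FPKM and 2172, 2709 and 2826 FPKM (adjusted p = 0.0867). The part of granulocytes in the monocyte list was not tested.

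Matrix genes, metalloproteinases and their inhibitors rose in 15 of 31 tested members and fell in 1, Mmp12 (median 0.99). Fn1, fibronectin, went from 1.25, 0.873 and 1.12 FPKM to 6.65, 6.65 and 8.37 FPKM (log2 fold change 2.64, standard error 0.165, adjusted p = 1.98e-04). Mmp14, a membrane-bound collagenase, rose from 29.04, 30.7 and 23.8 FPKM to 139, 136 and 127 FPKM (log2 fold change 2.27, standard error 0.111, adjusted p = 7.59e-05) and Tgfbi, a TGF-β-induced matrix protein, from 24.6, 21.7 and 21.1 FPKM to 92.5, 91.8 and 95.5 FPKM (log2 fold change 2.05, standard error 0.0824, adjusted p = 3.88e-05). Timp1 rose 5.43-fold. Vcan, Mmp14, Tgfbi, Ecm1 and the fall of Mmp12 passed in the set-adjusted fit. Fibroblast genes were near 0 in the same libraries. The summed FPKM of 9 of them, Col1a1, Dcn and Pdgfra included, was 0.404 to 0.928 in control and 0.727 to 0.823 in IL-6-treated Mϕs, and no single one exceeded 0.340 FPKM. Coagulation and fibrinolysis genes rose in 12 and fell in 2 of 28 (median 0.84). F13a1, the clot-stabilizing factor XIII A chain found in monocytes, went from 27.4, 19.2 and 17.6 FPKM to 91.2, 87.9 and 87.9 FPKM (log2 fold change 2.08, standard error 0.163, adjusted p = 4.33e-04), and F10, factor X, from 8.77, 11.8 and 10.3 FPKM to 50.2, 50.9 and 48.2 FPKM (log2 fold change 2.27, standard error 0.114, adjusted p = 8.11e-05). Serpinb2, the inhibitor PAI-2, was at 0.06098, 0.07098 and 0.158 FPKM and 2.71, 2.54 and 3.06 FPKM, while its target Plau, urokinase, fell from 46.1, 53.9 and 76.5 FPKM to 12.5, 15.7 and 17.1 FPKM (log2 fold change −1.94, standard error 0.207, adjusted p = 0.00142). Thus an activator of fibrinolysis fell where an inhibitor of it rose. F13a1, F10 and Serpinb2 passed in the set-adjusted fit, and Plau did not (adjusted p = 0.307). Of integrins and adhesion molecules 11 of 48 rose and 3 fell. Itga1, a collagen receptor chain, rose from 0.1001, 0.0502 and 0.04904 FPKM to 2.03, 1.65 and 1.98 FPKM, whereas Itgax (CD11c) fell from 19.6, 18.1 and 23.8 FPKM to 6.51, 6.37 and 6.33 FPKM. Itga1 and Emb passed in the set-adjusted fit.

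A list of 30 genes of megakaryocytes and platelets was drawn up after the values were seen. It holds 3 of the 12 coagulation rises, 3 of the 11 adhesion rises, 2 of the 10 chemokine rises and 2 of the 22 rises among the transcription factors described further on. It also holds 2 of the 8 rises among the purine and NAD genes (P2rx1 and P2ry1). The eicosanoid, uptake, fusion and mature Mϕ lists share 1 rise each with it. All 30 were tested, 23 rose and none fell, with a median of 1.62. Platelets carry these transcripts without a nucleus, and megakaryocytes are cells of the marrow. Ppbp, the platelet basic protein, went from 37.5, 56.9 and 48.3 FPKM to 194, 283 and 379 FPKM (log2 fold change 2.55, standard error 0.265, adjusted p = 0.00123), and Pf4, platelet factor 4, which Mϕs also express, from 268, 410.0 and 371 FPKM to 999.9, 1553 and 2042 FPKM. Itga2b, the integrin αIIb chain, was at 6.69, 11.3 and 9.11 FPKM and 19.2, 39.8 and 32.1 FPKM, the von Willebrand receptor part Gp9 at 4.097, 6.47 and 4.95 FPKM and 12.7, 26.8 and 22.8 FPKM, and the serotonin transporter gene Slc6a4 at 0.493, 0.537 and 0.654 FPKM and 3.37, 5.71 and 4.71 FPKM. Control #1 and IL-6 #1, which carry the same mouse number, were each the lowest of their group in all of these. IL-6 #1 was still above every control library. None of the 30 passed in the set-adjusted fit, although their median there was 1.61. Red cell markers were low in both groups, with a summed FPKM of 1.21 to 7.15 in control and 3.39 to 9.32 with IL-6.

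Antibody genes rose as well, in a count also made after the values were seen. Of 150 tested immunoglobulin gene segments 43 rose and 1 fell (median 1.72), with 75 rises when mouse number was a block, 25 without control #3, 27 without IL-6 #2 and 22 without IL-6 #3. Of the rises 4 passed in the set-adjusted fit. The κ constant region Igkc was at 20.4, 64.5 and 53.1 FPKM in control and 95.9, 160.4 and 256 FPKM with IL-6, Ighg2b at 0.342, 3.09 and 0.926 FPKM and 3.69, 13.5 and 18.6 FPKM, and Jchain, which joins secreted IgM and IgA, at 2.12, 1.39 and 1.72 FPKM and 5.19, 6.24 and 11.3 FPKM (log2 fold change 2.00, standard error 0.303, adjusted p = 0.00538). Gene segments are short and alike, so reads may be shared among them. The B-cell genes Cd79a and Cd79b did not pass. Cd79b was at 15.5, 28.7 and 23.3 FPKM and 10.8, 14.02 and 16.4 FPKM. Eosinophil genes went the other way, with 5 falls in 8 tested members and no rise (3 falls without control #3). None passed in the set-adjusted fit. Prg2, the granule major basic protein, fell from 65.1, 154 and 141 FPKM to 16.4, 25.03 and 21.2 FPKM (log2 fold change −2.44, standard error 0.342, adjusted p = 0.00396), Epx, eosinophil peroxidase, from 0.6803, 1.46 and 1.25 FPKM to 0.0838, 0.302 and 0.1903 FPKM and Ear1 from 3.57, 6.76 and 6.36 FPKM to 0.825, 1.09 and 0.803 FPKM. T-cell, NK-cell, fibroblast and adipocyte markers summed to at most 1.43 FPKM in any of the 6 libraries. Transcripts of platelets, antibodies and eosinophils thus moved with the treatment in the same libraries as the genes of the functional lists. Among these are the monocyte, chemokine, matrix, coagulation, adhesion and purine genes, and the part of other cell types in them was not tested.

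**Figure D4:**
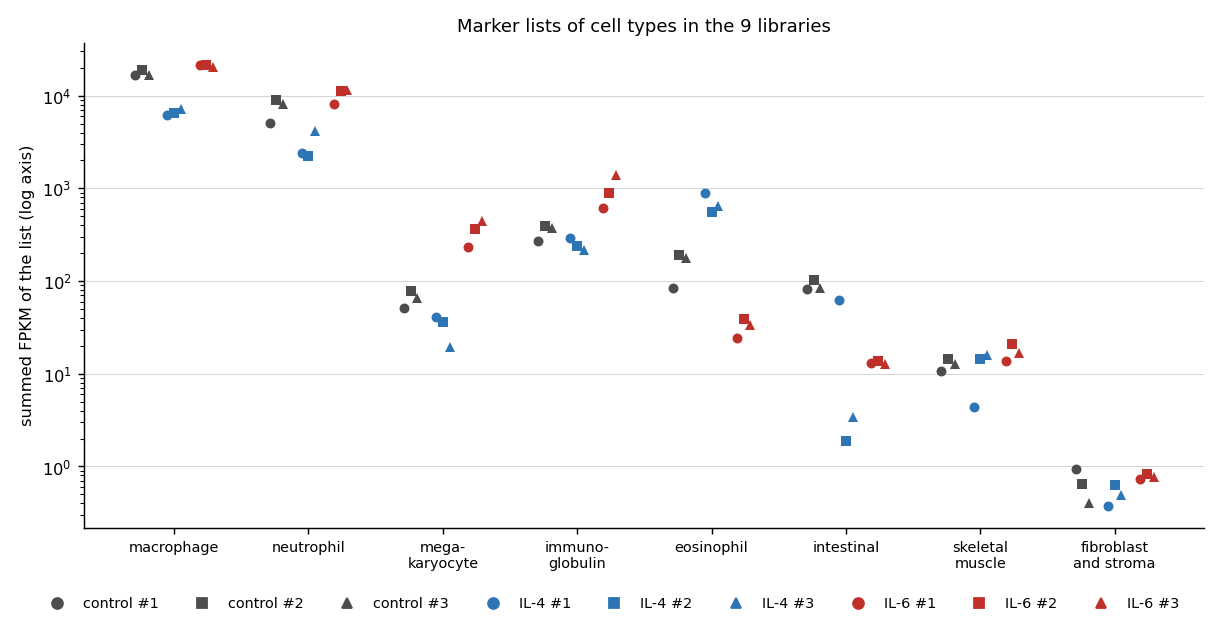
Summed FPKM of 8 marker lists on a log axis in the 9 libraries of the series, with control in gray, IL-4 in blue, IL-6 in red and a marker shape for each replicate number. The megakaryocyte list runs from 51.6 to 78.3 in control and from 234 to 446 in IL-6 libraries, the eosinophil list is lower in all 3 IL-6 than in all 3 control libraries, and intestinal genes divide control #1 to #3 and IL-4 #1 from the rest.

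Cholesterol synthesis and uptake rose in 10 of 26 genes and fell in none (median 0.92), with 23 of 26 estimates above 0. Hmgcs1, which makes the substrate of the rate-limiting reductase, went from 17.2, 14.6 and 16.1 FPKM to 38.2, 33.4 and 32.2 FPKM (log2 fold change 1.11, standard error 0.0994, adjusted p = 7.14e-04), Mvd from 15.4, 17.7 and 14.4 FPKM to 39.4, 40.6 and 35.5 FPKM (log2 fold change 1.28, standard error 0.102, adjusted p = 4.56e-04), and Sqle, which oxidizes squalene, from 5.59, 5.68 and 5.802 FPKM to 13.5, 12.3 and 10.7 FPKM (log2 fold change 1.08, standard error 0.103, adjusted p = 9.22e-04). Mvd, Fdft1 and Sqle passed in the set-adjusted fit, where the median was 1.65. Among 54 genes of fatty acid synthesis, lipid export and PPAR and LXR targets 7 rose and 6 fell (median −0.19). Without control #3, IL-6 #2 or IL-6 #3 the rises numbered 4. The desaturase and elongase genes Fads2, Scd2 and Elovl6 were 5.69-fold, 4.78-fold and 2.59-fold higher. Cd36 is among the falls. Pparg, the nuclear receptor that drives Cd36, was at 15.6, 18.2 and 20.02 FPKM in control and 2.85, 5.08 and 4.73 FPKM with IL-6 (log2 fold change −2.09, standard error 0.225, adjusted p = 0.00144), and Lpl, lipoprotein lipase, at 153, 174 and 237 FPKM and 62.8, 62.001 and 68.4 FPKM (log2 fold change −1.52, standard error 0.163, adjusted p = 0.00143). The sterol exporter gene Abcg1 fell 2.099-fold, whereas Abca1 rose 2.93-fold but lost its call without control #3 or any 1 IL-6 library (adjusted p 0.0532 to 0.0682). Cd36 and Cyp27a1 passed in the set-adjusted fit. Apoe, the lipid-carrying apolipoprotein E, did not pass (log2 fold change −0.52, adjusted p = 0.0767).

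Genes of uptake receptors had 7 rises and 4 falls in 36 (median 0.04), and 4 rises without IL-6 #2. Of the falls only that of Cd36 passed in the set-adjusted fit, and of the rises none. Cd36, Axl and Stab2 fell, Marco and the transferrin receptor Tfrc rose, and Mertk, the relative of Axl that serves the same ligands in mature Mϕs, was at 75.3, 46.3 and 54.1 FPKM in control and 60.6, 56.97 and 54.7 FPKM with IL-6 (adjusted p = 0.9995). For iron, Slc40a1 (ferroportin, the only known iron exporter) fell from 159, 117 and 126 FPKM to 44.3, 44.8 and 44.3 FPKM (log2 fold change −1.58, standard error 0.11998, adjusted p = 3.91e-04), Tfrc, which imports transferrin iron, rose from 72.8, 58.2 and 71.1 FPKM to 198, 206 and 181 FPKM (log2 fold change 1.54, standard error 0.1103, adjusted p = 3.18e-04), and Slc39a14, a zinc and iron importer, rose from 1.12, 0.8503 and 1.04 FPKM to 5.01, 3.94 and 4.4996 FPKM (log2 fold change 2.06, standard error 0.151, adjusted p = 3.35e-04). Of these 3 genes only Slc39a14 passed in the set-adjusted fit, where the log2 fold change of Slc40a1 was −0.15. Over the 35 genes of iron, heme and zinc handling, 3 rose (8.57%, against 5.2% of all genes) and 2 fell (5.71%, against 2.59%). Their median was 0.04, so the 3 genes do not describe the list as a whole.

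Of 34 genes of glycolysis and the pentose phosphate pathway 6 rose and none fell (median 0.42). The rises were the transporter genes Slc2a1, Slc2a3, Slc2a6 and Slc16a3 and the genes Pfkl and Pfkfb3. Slc2a1 (GLUT1) went from 6.504, 6.896 and 8.52 FPKM to 20.6, 21.1 and 25.2 FPKM, Slc2a6 from 5.95, 6.1999 and 5.09 FPKM to 34.2, 28.02 and 23.3 FPKM, and the lactate exporter Slc16a3 from 6.35, 7.39 and 7.36 FPKM to 32.1, 35.1 and 37.2 FPKM (log2 fold change 2.29, standard error 0.0972, adjusted p = 5.06e-05). Pfkl, phosphofructokinase, rose 2.59-fold. Of the 6, Slc2a1, Slc2a6, Slc16a3 and Pfkl passed in the set-adjusted fit. Hk2 was higher in every IL-6 library than in any control library but under the 2-fold threshold (log2 fold change 0.73), and Ldha did not pass (adjusted p = 0.0973). Hypoxia-response genes rose in 9 of 29 (median 0.40). Ddit4 was 5.86-fold higher and Egln3, the oxygen-sensing prolyl hydroxylase, 2.74-fold, while Vegfa had overlapping groups (adjusted p = 0.108). Slc2a1 and Ak4 passed in the set-adjusted fit. Of the 26 genes of the TCA cycle and itaconate 1 rose. This was Acod1, which makes itaconate, at 2.92, 2.01 and 1.85 FPKM in control and 56.4, 43.8 and 37.6 FPKM with IL-6 (log2 fold change 4.29, standard error 0.212, adjusted p = 7.80e-05), and it passed in the set-adjusted fit. The 76 nuclear genes of oxidative phosphorylation had no rise and no fall, and by adjusted p alone, a rule under which 11.3% of all genes were higher and 10.8% lower, none was higher and 3 were lower. Their median was −0.20, with 74 of 76 estimates below 0. Cytosolic ribosomal proteins had a median of −0.25 over 86 genes. The medians of the single libraries had an SD of 0.198 within groups in the first family and 0.214 in the second. This is about as large as the shift itself. In the less precise set-adjusted fit the 2 medians were −0.76 and −1.14, against 0.22 over all genes.

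Genes of arginine use and oxidative defense had 8 rises and 3 falls in 48 (median 0.05, and −0.06 in the set-adjusted fit). Arg2, the mitochondrial arginase, rose from 4.01, 3.88 and 4.05 FPKM to 32.1, 34.3 and 32.9 FPKM (log2 fold change 3.02, standard error 0.0715, adjusted p = 9.32e-06). Ass1, which regenerates arginine from citrulline, rose from 2.03, 1.85 and 2.08 FPKM to 12.7, 11.1 and 11.5 FPKM (log2 fold change 2.51, standard error 0.0977, adjusted p = 3.40e-05). Arg1, the cytosolic arginase, stayed low, at 0.604, 0.718 and 0.409 FPKM and 2.06, 3.48 and 5.33 FPKM, although the difference passed (log2 fold change 2.39, standard error 0.359, adjusted p = 0.005201). Sod2, mitochondrial superoxide dismutase, rose 5.74-fold, from 22.5, 23.1 and 21.5 FPKM to 139, 126 and 121 FPKM (log2 fold change 2.51, standard error 0.0809, adjusted p = 1.99e-05), while Gpx3, the secreted glutathione peroxidase, fell 5.18-fold, from 73.6, 86.6 and 77.6 FPKM to 15.3, 16.3 and 14.3 FPKM (log2 fold change −2.36, standard error 0.09104, adjusted p = 3.40e-05). Hmox1, heme oxygenase-1, did not pass (adjusted p = 0.389). Arg2, Sod2, Ass1, Gpx3 and Gstm1 passed in the set-adjusted fit. Among eicosanoid and phospholipid genes 10 of 33 rose and 2 fell, 1 of them only with IL-6 #1 in the fit. Ptgs2 (COX-2) went from 0.213, 0.0874 and 0.137 FPKM to 3.19, 2.78 and 2.97 FPKM (log2 fold change 3.68, standard error 0.239, adjusted p = 2.07e-04), and Pla2g7, which breaks down platelet-activating factor, from 76.7, 88.96 and 81.4 FPKM to 438, 463 and 488 FPKM (log2 fold change 2.49, standard error 0.0903, adjusted p = 2.67e-05). Ephx1, microsomal epoxide hydrolase, fell 3.23-fold, and all 3 passed in the set-adjusted fit. Alox5, the entry to leukotrienes, did not pass (adjusted p = 0.523).

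In NF-κB signaling 9 of 34 genes rose and none fell (median 0.36), and 31 estimates were above 0. Traf1, an adaptor of TNF receptors, rose from 0.413, 0.518 and 0.469 FPKM to 3.01, 3.24 and 2.94 FPKM (log2 fold change 2.48, standard error 0.145, adjusted p = 1.41e-04), and the inhibitors Nfkbie and Nfkbia 4.04-fold and 2.58-fold. Tnfaip3 (A20) and Nfkbiz stayed under the 2-fold threshold, at log2 fold changes of 0.73 and 0.86. Among 90 other transcription factor genes 22 rose and 2 fell. Fosl2 (Fra-2) went from 4.797, 2.97 and 4.11 FPKM to 15.7, 13.7 and 15.5 FPKM (log2 fold change 1.92, standard error 0.177, adjusted p = 8.07e-04), Nfil3 from 11.03, 10.8 and 8.96 FPKM to 32.6, 37.2 and 40.2 FPKM (log2 fold change 1.82, standard error 0.119, adjusted p = 2.13e-04), and Ahr, the aryl hydrocarbon receptor, rose 3.59-fold together with its repressor Ahrr at 3.68-fold. Id3 fell 2.42-fold, and Egr2, which fell 2.12-fold, lost its call without control #3 (log2 fold change −0.96). In the set-adjusted fit Traf1, Nfkbie, Nfkbia and Nfkb2 passed among the NF-κB genes and Nfil3, Ets2 and Runx3 among these factors. Cell death genes had 5 rises and 2 falls in 36, with Ripk3, the necroptosis kinase, 2.79-fold higher, and Mcl1 under the threshold at a log2 fold change of 0.36, and the falls numbered 4 without control #1 and 1 without control #2 or IL-6 #3. Ripk3 and the fall of Gadd45a passed in the set-adjusted fit. In the unfolded protein response no gene of 35 rose and 2 fell (median −0.21, which turned to 0.05 in the set-adjusted fit), Atf3 and Sdf2l1. Atf3 passed in the set-adjusted fit but lost its call without control #3 (log2 fold change −0.98), and Sdf2l1 without control #2 (−0.95) or IL-6 #1 (−0.996).

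Of 18 genes of MHC class II presentation 1 rose, 5.56% against 5.2% of all genes. It was March1, a ubiquitin ligase that removes class II from the surface, which went from 13.8, 7.61 and 9.15 FPKM to 36.5, 28.9 and 28.2 FPKM (log2 fold change 1.64, standard error 0.224, adjusted p = 0.00365). Cd74 and H2-Ab1 had overlapping groups (adjusted p = 0.848 and 0.759), and of 29 class I genes 1 rose (3.45%), H2-M2 (2 without control #1). Neither rise passed in the set-adjusted fit. Co-stimulatory and checkpoint genes had 7 rises and 4 falls in 33 (median 0.32). Nectin2, a ligand of the T-cell receptors TIGIT and CD226, went from 1.85, 2.24 and 1.91 FPKM to 11.7, 11.2 and 11.9 FPKM (log2 fold change 2.48, standard error 0.104, adjusted p = 4.30e-05), Cd274 (PD-L1) from 26.9, 17.3 and 20.95 FPKM to 60.9, 48.6 and 47.8 FPKM (log2 fold change 1.28, standard error 0.177, adjusted p = 0.00378), and Cd40 from 2.397, 2.23 and 2.62 FPKM to 6.598, 4.94 and 5.83 FPKM (log2 fold change 1.22, standard error 0.135, adjusted p = 0.00159). Cd83, a marker of antigen-presenting cells, fell from 47.4, 53.8 and 48.5 FPKM to 18.9, 18.5 and 20.5 FPKM (log2 fold change −1.37, standard error 0.0832, adjusted p = 1.63e-04). Nectin2 and Cd83 passed in the set-adjusted fit. Of 84 interferon-stimulated genes 6 rose and 1 fell, a fall that was lost without IL-6 #1 (median 0.35). The share of rises was 7.14%, against 5.2% of all genes. By adjusted p alone 29 of the 84 were higher and 3 lower, a rule under which 11.3% of all genes were higher and 10.8% lower. Estimates were above 0 in 70. Ly6a, Ly6e and Gbp6 passed in the set-adjusted fit, where the median was 1.24 against 0.22 over all genes. Ly6a (Sca-1) rose from 1.97, 2.41 and 1.96 FPKM to 20.3, 30.6 and 24.6 FPKM (log2 fold change 3.50, standard error 0.168, adjusted p = 7.09e-05), while Irf7, the master regulator of type I interferon, did not pass (adjusted p = 0.0806), and Ifit3 was lower in every IL-6 library but under the threshold at a log2 fold change of −0.76.

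Of 101 genes of DNA replication and mitosis 1 rose, Mki67 (Ki-67), from 10.1, 6.83 and 8.01 FPKM to 22.5, 18.3 and 17.5 FPKM (log2 fold change 1.22, standard error 0.168, adjusted p = 0.00371), and none fell. Mki67 did not pass in the set-adjusted fit. Without any 1 of the control libraries 2 rose. The median was 0.27, and 78 estimates were above 0. By adjusted p alone 24 were higher and 4 lower, a rule under which 11.3% of all genes were higher and 10.8% lower. Top2a was at 5.33, 5.19 and 6.49 FPKM and 9.51, 10.3 and 9.61 FPKM, under the 2-fold threshold. Lysosomal genes had 1 rise and 1 fall in 80 and a median of −0.24, with 3 falls without control #1 or IL-6 #2 and 2 without control #2. Ctsc, the protease that activates granule serine proteases, rose from 46.9, 39.7 and 41.01 FPKM to 213, 183 and 202 FPKM (log2 fold change 2.23, standard error 0.0987, adjusted p = 6.00e-05), and Atp6v0d2, a proton-pump subunit linked to Mϕ fusion, fell from 147, 169 and 195 FPKM to 37.1, 46.9 and 45.2 FPKM (log2 fold change −1.98, standard error 0.137, adjusted p = 2.74e-04). Both passed in the set-adjusted fit. By adjusted p alone 21 of the 80 were lower and 6 higher, against 10.8% and 11.3% of all genes. Ctsd and Gpnmb were among the lower ones, at log2 fold changes of −0.56 and −0.82. In fusion and osteoclast genes Src rose 4.84-fold, while Dcstamp, a fusion receptor, fell from 1.05, 0.914 and 1.25 FPKM to 0.301, 0.425 and 0.208 FPKM and lost its call without control #3 (adjusted p = 0.0603). Src passed in the set-adjusted fit. Among genes of purine signaling and NAD, Bst1, which shares its enzyme activity with Cd38, rose from 4.15, 4.98 and 4.85 FPKM to 41.03, 42.1 and 39.5 FPKM (log2 fold change 3.11, standard error 0.0926, adjusted p = 1.53e-05). The adenosine receptors Adora2a and Adora2b rose 5.22-fold and 5.05-fold, and Entpd1 (CD39), the enzyme that breaks down extracellular ATP, fell from 76.3, 59.4 and 64.9 FPKM to 19.7, 20.7 and 21.8 FPKM (log2 fold change −1.68, standard error 0.107, adjusted p = 2.07e-04). Cd38, Bst1 and Adora2b passed in the set-adjusted fit, and for Entpd1 the adjusted p there was 0.344. In all 8 of 30 such genes rose, 5 without IL-6 #3, and 1 fell. Histone and DNA modifiers (26 genes) had no rise and no fall by both thresholds. By adjusted p alone 3 were higher and 2 lower, near the 11.3% and 10.8% of all genes.

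The plot of both fits shows how these calls change with the set term. That term also takes up whatever sets mouse 1 apart within the IL-4 group. Of the 666 rises 138 passed in the set-adjusted fit and 659 kept the sign, and of the 332 falls 31 passed and 307 kept the sign. A fraction of 0.5 or more of the log2 change was kept by 636 of the rises and 237 of the falls. The 23 genes of only 1 set were defined by the difference that the set term takes up, so their values near 0 in that fit follow from the definition. Skeletal muscle genes, which were also set aside, had 3 rises and 1 fall among 6 tested, with a summed FPKM of 10.8 to 14.4 in control and 13.7 to 21.2 with IL-6. The sum hides a division by set. Mylpf was at 0.378, 0.471 and 0.778 FPKM in control and 2.21, 5.48 and 3.28 FPKM with IL-6. In IL-4 #1 to #3 it was at 0.441, 4.19 and 3.19 FPKM. Acta1 and Tnnt3 were likewise higher in the set without intestinal fragments, whereas Tnni2 was higher in control than with IL-6.

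**Figure D5:**
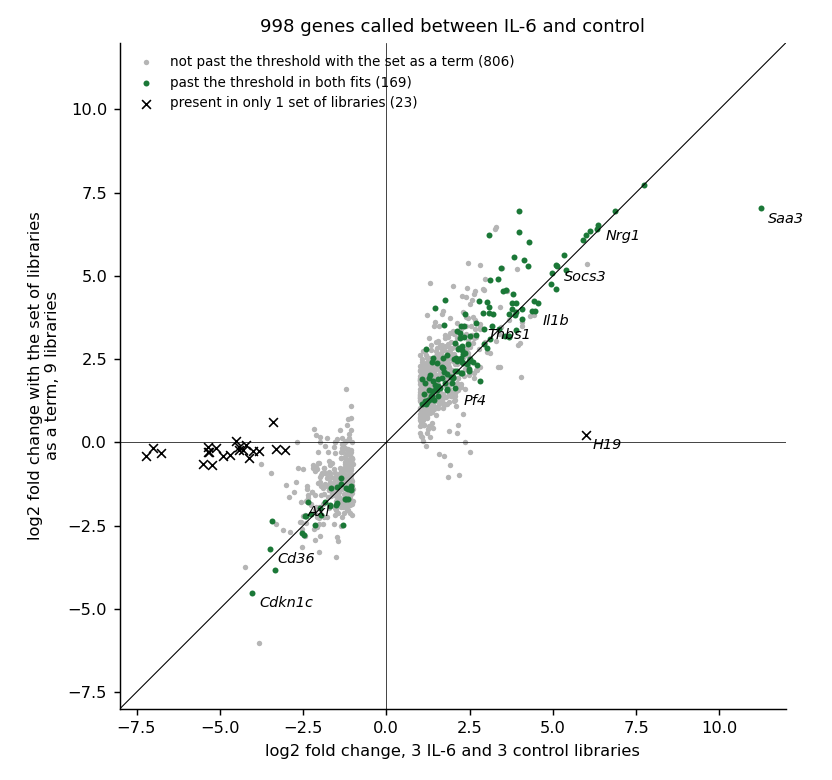
Log2 fold change of the 998 called genes from the 6 libraries (x axis) against that from all 9 with the set-adjusted fit (y axis), with the diagonal as a line. The 169 green points passed in both fits, the gray points only in the first, and the 23 crosses, genes present in only 1 set, lie far from 0 on the x axis and, as their definition implies, near 0 on the y axis.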

How the data were processed

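RNA-seq (TruSeq stranded mRNA, HiSeq2500) was made from 3 control, 3 IL-4 and 3 IL-6 libraries. The authors deposited FPKM per gene, made per their notes with STAR 2.4.2a, Cufflinks 2.2.1 and GRCm38. Whether counting used strand is not given in the sources used here, so overlapping genes are uncertain. For genes with an exon length, 100% of values gave whole fragments (tolerance 0.05), with 29988160 to 35087119 fragments in the 6 libraries.

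Genes with a mean of at least 0.5 FPKM were tested with limma 3.58.1 (R 4.3.3, trend and robust) on log2(FPKM + 0.1), so folds of low genes are understated on that scale. A script tested on simulated data did this. Alternatives were other pseudocounts, filters, scalings, libraries, a mouse block, a set term and voom. Control and IL-6 libraries of the same number come from the same mouse per the design text, and their deviations correlated (r = 0.413, 0.210 and 0.161, against −0.348 to 0.171 for pairs of different number). The members and lists were chosen with earlier results of these data known. Named genes were the 12 largest rises and falls, the 8 most abundant of each, and up to 4 per list and direction plus fixed anchor genes. The rankings by size and by abundance left out predicted and pseudogene names, intestinal and muscle markers, Saa3, Ccl8, Cd38, Hif1a, Ets2, Nfkb2, Stat3 and Bcl3. Genes outside this rule were named after their values were seen, and a few genes within it are not reported here. The motif TTCNNNGAA was searched in RefSeq promoters.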

Additional observations from a re-analysis of the deposited data

How the results depend on the processing

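Of the 998 genes called (666 higher, 332 lower), leaving out 1 library at a time gave 788 to 1348, with 532 to 956 higher and 247 to 392 lower, the highest without control #1. The mouse number as a replicate block gave 1125 (756 higher, 369 lower), 992 of them among the 998, and of the 193 named genes called it ended 1 call, that of Mir6236. It raised the immunoglobulin count to 75. The count moved by over 1.5 times with pseudocount 1 (608, 434 higher, 174 lower), a minimum of 5 FPKM (398, 290 and 108 of 6614 genes), adjusted p alone (2836, 1451 and 1385), the set-adjusted fit (189, 150 and 39) and that fit without IL-4 #3 (370, 283 and 87). The first 3 follow from how they are built. In the set-adjusted fit the standard errors widened, and the cause beyond that was not tested. Quantile normalization gave 964, with 570 higher and 394 lower, and moved the median of all genes to −0.06. Median-ratio rescaling gave 997, voom 913, all 9 libraries 707, no filter 1228, pseudocount 0.01 1016 and plain eBayes 974. Genes of only 1 set of libraries left out gave 975, and intestinal and muscle markers left out 979, both chosen after seeing the data, as was the set-adjusted fit without IL-4 #3. In the set-adjusted fit 76 of the 193 named genes passed, and 111 when IL-4 #3 was left out of it. Without each of the 6 libraries in turn 171 passed. Directions reversed in the set-adjusted fit for Il6ra (0.69), Siglec1 (0.70) and Lyz1 (1.61, and 2.12 without IL-4 #3), and the cause was not tested. A gene near 0.5 FPKM rests on few fragments.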

Other observations

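Gene families defined by name alone, and looked at after the values were seen, hold further members that changed. Of 188 tested solute carrier genes 11 rose and 6 fell, shares close to those over all genes. Slc7a11, the cystine importer, went from 2.39, 1.32 and 1.62 FPKM in control #1 to #3 to 12.02, 8.0001 and 7.45 FPKM in IL-6 #1 to #3 (log2 fold change 2.31, standard error 0.261, adjusted p = 0.00172). In the serpin family 5 of 11 rose and 1 fell, Serpina3b among the rises, at 0.388, 0.854 and 0.592 FPKM against 2.7005, 3.55 and 3.81 FPKM. Its sequence resembles that of other Serpina3 genes, so reads may be shared. Among 10 potassium channel genes 3 rose and 1 fell. The voltage-gated channel gene Kcna3 was at 1.295, 0.1403 and 0.165 FPKM and 3.41, 3.11 and 3.13 FPKM (log2 fold change 2.89, standard error 0.656, adjusted p = 0.0236), and the calcium-activated channel gene Kcnn4 at 4.13, 5.67 and 6.89 FPKM and 2.31, 2.57 and 2.298 FPKM (log2 fold change −1.15, standard error 0.189, adjusted p = 0.00725). The fall of Kcnn4 was lost without control #3, and neither gene passed in the set-adjusted fit. Of 78 mitochondrial ribosomal protein genes none rose and none fell, with a median log2 fold change of −0.27.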
